A study of Mus musculus with 6 samples.

Results

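The response of mouse peritoneal macrophages to PAM, a lipopeptide ligand of Toll-like receptor 2 (TLR2), was compared with untreated macrophages across 19935 genes. The arrays were chosen by their titles: 2 arrays of PAM treated macrophages and 2 arrays of control peritoneal macrophages, which are 4 of the 6 arrays of the series. All cells came from the abdominal cavity of mice of the inbred strain C57BL/6 and were grown in DMEM with serum. PAM was given at 1 ug/mL for 24 h. The sample labels name the compound PAMCSK3 for replicate 1 and PAMCSK4 for replicate 2. For the untreated cells the labels give no culture time. The other 2 arrays, of cells given poly I:C (synthetic double-stranded RNA, a ligand of TLR3) at 2 ug/mL for 24 h, entered the fit and serve below as a second ligand. The labels give neither the sex nor the age of the mice and do not state if replicates were taken from different mice or dishes. The p-values then reflect the scatter of these samples alone, and that scatter could be technical.

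TLR2 sits in the plasma membrane of macrophages and recognises bacterial lipopeptides as a pair with TLR1 or TLR6. The adaptors TIRAP and MyD88 carry the signal through IRAK kinases and TRAF6 to the NF-kB and AP-1 transcription factors, which switch on cytokine genes and, with them, inhibitors that limit the signal. Macrophages taken from the peritoneum also engulf dying cells and particles, and carry lectins, scavenger receptors, Fc receptors and complement receptors for that purpose.

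The deposited values are on a log scale, taken as log2, and each probe had been centred on its median over the 6 arrays. A value therefore says how far an array lies from that median, and gives no level; genes are not compared with each other by their values. A difference is the mean of the PAM arrays minus the mean of the control arrays, given ± SE (n = 2 arrays per group), with the adjusted p of limma. A gene passed at an adjusted p under 0.05, corrected over all 19935 genes by the Benjamini-Hochberg method, and "rose" or "fell" is written only of genes that passed. The median SE of a difference was 0.07. Replicate arrays differed from each other with an SD over genes of 0.152 for the controls and 0.114 for PAM, and the control arrays differed by more than 1 at 2 genes, Ccl5 and Cfb. The labelled cell type was checked against markers. All 8 macrophage markers measured (Adgre1, Cd68, Csf1r, Itgam, Lyz2, Mertk, Spi1 and Fcgr1) were in the class at 8 or above. That class holds genes whose control and PAM values show the single-precision steps of values that lay at 8 or above before centring. A lower value can match these steps by accident, so the class can hold genes below 8. In it were 37.7% of all genes tested and 12.8% of 1027 olfactory receptor genes. It held 1 of 13 B cell markers, 1 of 14 T and NK cell markers, 0 of 10 mast cell markers and 4 of 14 neutrophil markers. It also held 6 of 15 mesothelial and fibroblast markers, among them Col1a1, Col3a1 and Pdgfra. In bulk RNA, fewer cells of a type and less RNA per cell cannot be told apart.

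Promoters and microRNAs show which sequences stand beside the genes described below. The promoters are the 250 bases before an annotated transcript start in RefSeq (build GRCm38.p6); a gene can have several starts, and a window can lie inside the gene, as for Slc7a11. They are written 5′ to 3′ on the gene's strand. These motifs were searched on both strands: the NF-kB motif, AP-1 (TGANTCA), C/EBP-ATF (TGATGNAA), the antioxidant response motif (TGACNNNGC) and the interferon-stimulated response motif (GAAA, any 2 bases, GAAA). The 4 printed promoters were chosen after the search, because they hold a match and belong to genes whose values follow. H2-M2, a nonclassical MHC class I gene, and Nfkbia, the inhibitor that NF-kB induces against itself, hold the NF-kB motif, in capitals. Slc7a11, the cystine importer, and Asns, which makes asparagine, hold the C/EBP-ATF motif, in capitals. The antioxidant response motif also matched in H2-M2, Nfkbia and Asns and is not marked.

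H2-M2 (chr17:37483555-37483804, minus strand): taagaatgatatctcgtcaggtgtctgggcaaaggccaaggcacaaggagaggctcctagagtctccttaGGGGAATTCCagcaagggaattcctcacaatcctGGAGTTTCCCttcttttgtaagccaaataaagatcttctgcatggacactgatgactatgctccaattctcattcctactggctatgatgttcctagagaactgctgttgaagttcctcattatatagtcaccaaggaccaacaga

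Nfkbia (chr12:55492648-55492897, minus strand): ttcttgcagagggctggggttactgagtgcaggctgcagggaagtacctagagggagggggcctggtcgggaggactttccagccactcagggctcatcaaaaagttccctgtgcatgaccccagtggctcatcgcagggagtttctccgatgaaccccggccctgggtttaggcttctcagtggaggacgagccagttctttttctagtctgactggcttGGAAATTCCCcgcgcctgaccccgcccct

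Slc7a11 (chr3:50443614-50443863, minus strand): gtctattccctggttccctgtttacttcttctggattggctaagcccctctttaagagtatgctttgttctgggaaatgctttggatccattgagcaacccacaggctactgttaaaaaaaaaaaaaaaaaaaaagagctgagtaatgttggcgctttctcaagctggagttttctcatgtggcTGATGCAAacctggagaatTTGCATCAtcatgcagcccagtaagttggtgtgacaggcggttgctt

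Asns (chr6:7693210-7693459, minus strand): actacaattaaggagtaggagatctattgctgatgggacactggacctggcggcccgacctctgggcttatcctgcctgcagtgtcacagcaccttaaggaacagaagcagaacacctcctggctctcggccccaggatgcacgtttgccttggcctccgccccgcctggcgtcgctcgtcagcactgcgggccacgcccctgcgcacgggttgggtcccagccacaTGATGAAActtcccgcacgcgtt

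The promoters of Acod1, Gpr84, Lcn2 and Clec4e, genes among the largest increases, held no match to the NF-kB motif in this window. A match is a description of letters and not a site. Over all 19175 promoters of 15612 genes the NF-kB motif was present in 8.19%. Among the 447 promoters of genes at least 2-fold higher with PAM it was present in 14.3%, among the 156 of genes at least 4-fold higher in 17.3%, and among the 427 of genes at least 2-fold lower in 8.67%. In the same order (all, 2-fold higher, 4-fold higher, 2-fold lower) AP-1 was present in 6.03%, 9.4%, 9.62% and 6.79%. The interferon-stimulated response motif was present in 2.86%, 6.49%, 7.05% and 3.98%, so its share in the 2-fold higher class was above that in the lower class. For C/EBP-ATF the shares were 2.68%, 3.58%, 2.56% and 2.58%, and for the antioxidant response motif 10.8%, 11.4%, 10.9% and 13.3%. These shares are counts in these promoters, with no test.

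Of 296 microRNA genes measured, 271 of them found in RefSeq, 9 rose and 10 fell with PAM. That is 6.42%, against 25% of all genes tested. The probes read transcripts at the gene and not the mature microRNA, and the microRNA genes described here were chosen after their values were seen. The mature forms of 4 of them are printed from RefSeq with the seed, bases 2 to 8, in capitals.

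mmu-miR-155-5p: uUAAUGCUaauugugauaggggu

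mmu-miR-146a-5p: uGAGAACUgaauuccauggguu

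mmu-miR-342-3p: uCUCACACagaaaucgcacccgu

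mmu-miR-181b-5p: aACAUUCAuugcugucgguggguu

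No seed was shared among these 4. Mir155 and Mir146 were the only 2 microRNA genes that changed at least 2-fold. Mir155, at chr16:84714140-84714204, is a microRNA gene known to be induced by TLR signals. It lay at -2.24 and -2.31 on the control arrays and at 1.50 and 1.55 on the PAM arrays, with no overlap. The difference was 3.80 ± 0.16 (adjusted p = 2.45e-07). Mir146, at chr11:43374397-43374461, encodes miR-146a, which targets IRAK1 and TRAF6 transcripts. It lay at -0.42 and -0.51 on the controls and at 1.53 and 1.58 with PAM, a difference of 2.02 ± 0.08 (adjusted p = 2.27e-07). Both were higher with PAM than with poly I:C, by 1.52 (adjusted p = 7.24e-05) and 1.56 (adjusted p = 8.85e-07). Mir342 fell by 0.99 and Mir181b-1 fell by 0.92. Among the 19 that passed, neighbouring microRNA genes moved the same way, and neighbours that did not pass were left out. Mir425 and Mir191 on chromosome 9 rose by 0.69 and 0.30. Mirlet7e and Mir125a on chromosome 17 rose by 0.62 and 0.37, and Mir23a and Mir24-2 on chromosome 8 fell by 0.34 and 0.30.

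**Figure D1:**
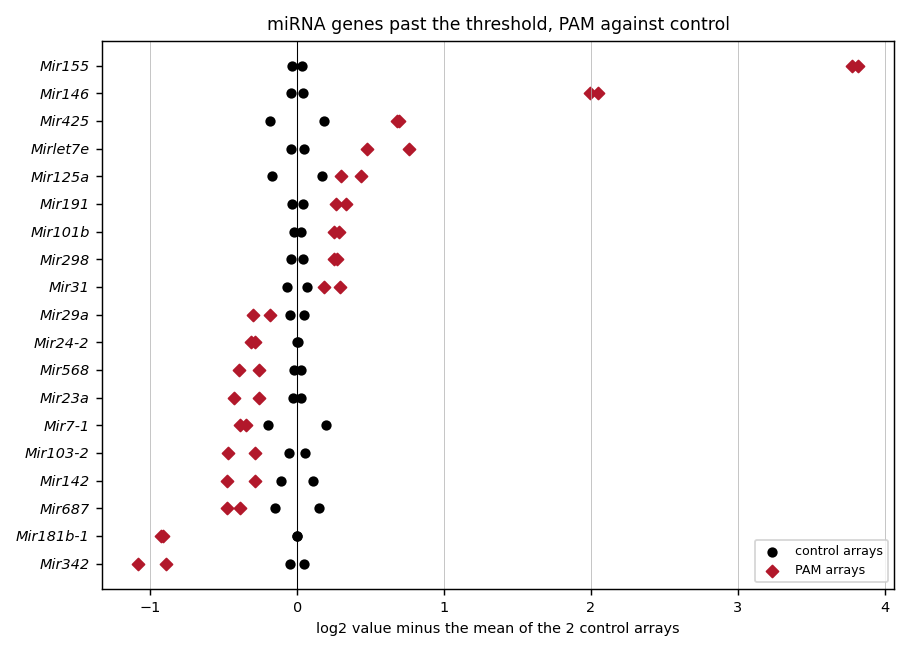
Log2 value minus the mean of the control arrays, for the 19 microRNA genes that passed; circles are control arrays and diamonds PAM arrays. Mir155 and Mir146 stand apart on the right, with differences of 3.80 and 2.02, and on the arrays of the other 17 the distance from the control mean is at most 1.08.

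Across all genes 4983 passed (25%), 2202 of them higher with PAM (11%) and 2781 lower (14%). Without PAM replicate 1 the lower class held 1828 genes. Most differences were small: 88.9% of genes lay within 0.5 of 0, and the median over all genes was -0.00. At least 2-fold, 452 genes rose (2.27%) and 386 fell (1.94%), and at least 4-fold 169 rose and 65 fell. At least 2-fold, increases thus outnumbered decreases as deposited, but after quantile normalization 450 genes rose and 479 fell. Differences ran from -3.96 to 7.29. Among the 7517 genes of the class at 8 or above, tested alone, 1676 rose (22.3%) and 2039 fell (27.1%), 49.4% together. A list of such genes with members in both directions is therefore no exception. Lists called divided, split or mixed below are to be read against these shares. At all 4983 genes that passed, the PAM arrays did not overlap the controls, but this also held for 55.7% of all genes tested. Of the 1027 olfactory receptor genes, which macrophages are not known for, 14 passed.

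The increases of the best known kind were inflammatory mediators, and they are given here only as a base. Of 32 cytokine and chemokine genes 27 rose and 0 fell (1 without PAM replicate 1), with a median of 1.35. Cxcl3 (7.29), Il1b (6.97) and Cxcl2 (6.70) were the largest. Il10, a cytokine that restrains inflammation, did not pass (-0.02 ± 0.08, adjusted p = 0.894).

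**Figure D2:**
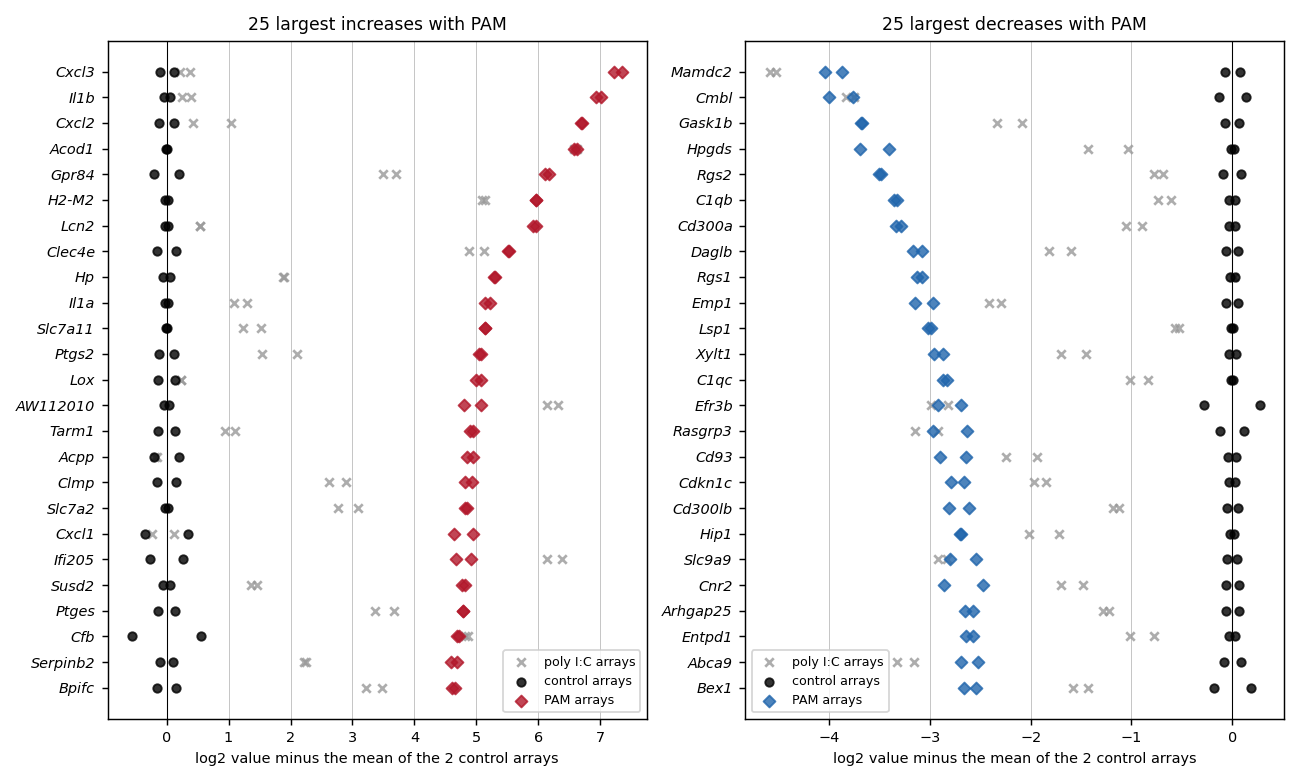
Log2 value minus the mean of the control arrays, for the 25 genes that rose most (left) and the 25 that fell most (right); circles are control arrays, diamonds PAM arrays and crosses poly I:C arrays. In every gene drawn the 2 PAM arrays lie beyond both control arrays, as the choice of genes requires.

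Of the 25 largest increases 19 belong to one of 58 functional lists, and of the 25 largest decreases 13 do. Over all genes changed at least 2-fold the lists hold 221 of 452 increases and 118 of 386 decreases. The large changes outside the lists included AW112010 (4.94), Tarm1 (4.92), an activating receptor of myeloid cells, and Acpp (4.90), a phosphatase. Clmp (4.87), an adhesion molecule, and Susd2 (4.79) lay outside them too. The largest decrease was Mamdc2, which lay at 3.88 and 4.03 on the controls and at -0.08 and 0.08 with PAM (-3.96 ± 0.08, adjusted p = 4.84e-09). It was followed by Cmbl (-3.88), a hydrolase, and Gask1b (-3.68). Daglb, a diacylglycerol lipase that makes the endocannabinoid 2-arachidonoylglycerol, fell by 3.13.

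**Figure D3:**
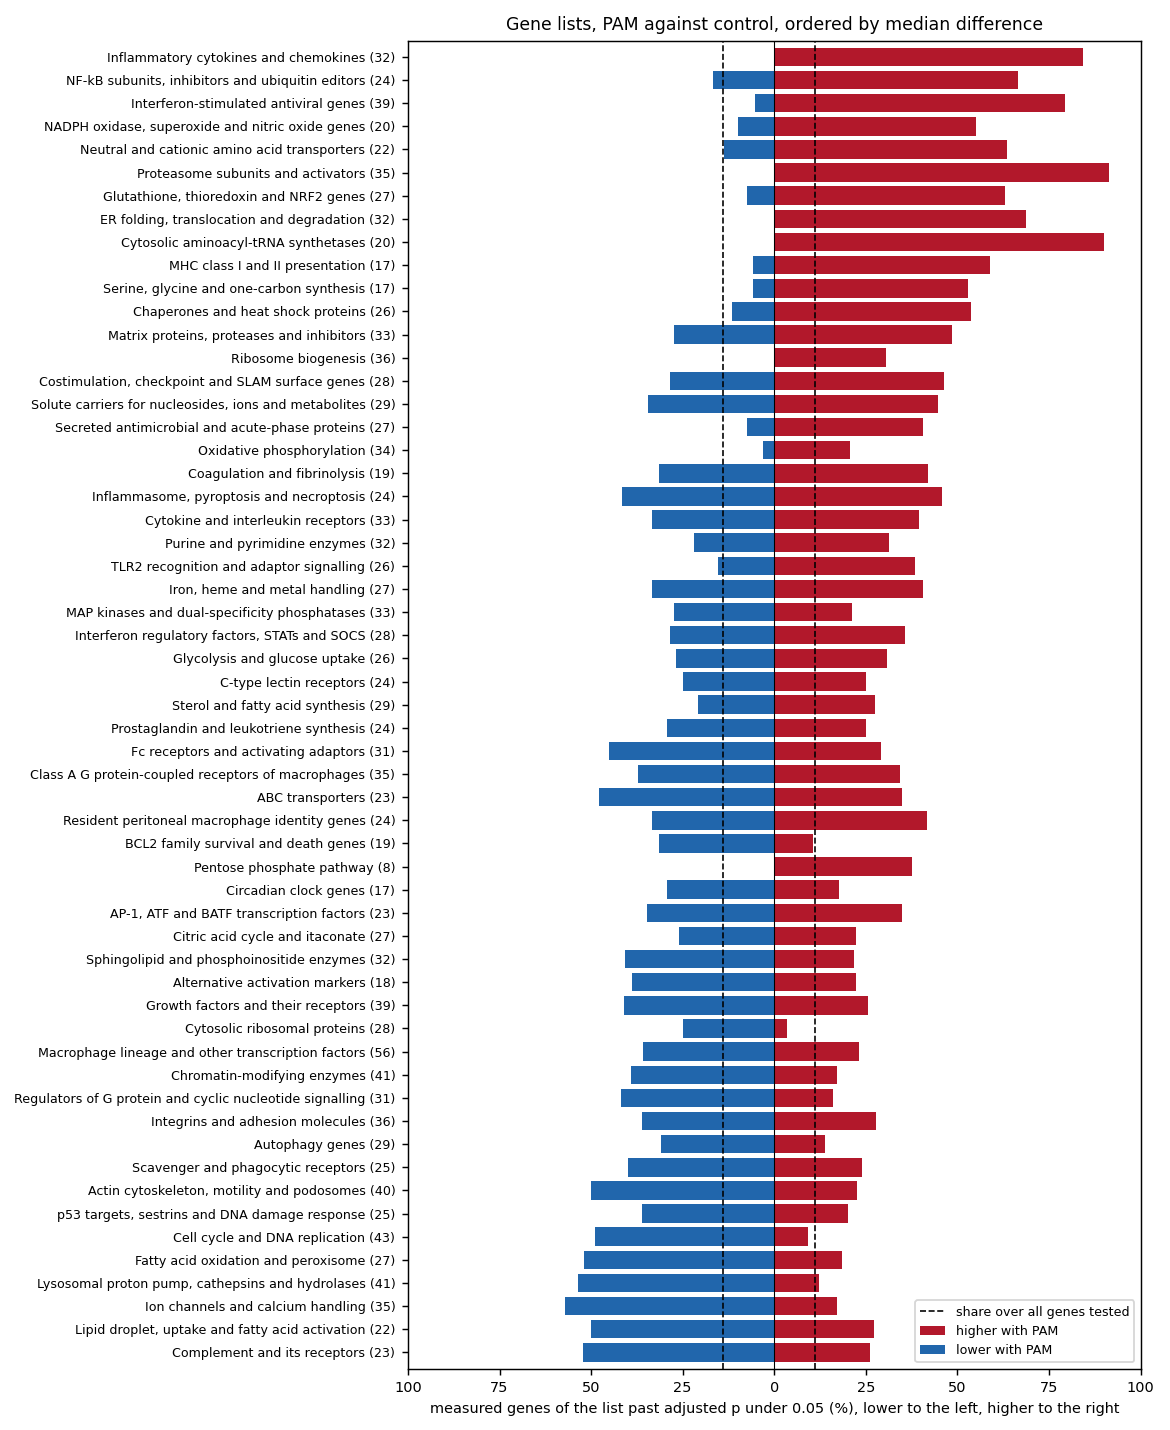
Share of each functional list reported here that rose (right) and fell (left) with PAM, in percent of the genes measured; dashed lines mark the shares over all genes, 11% higher and 14% lower. Proteasome and tRNA synthetase genes lie almost wholly on the side of increases, and lysosomal and ion channel genes mostly on the side of decreases.

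The receptor and its signalling genes come first. Of 26 genes of TLR2 recognition and signalling, 10 rose and 4 fell (median 0.05); only 2 fell when PAM replicate 1 or PAM replicate 2 was left out. Tlr2 lay at -3.18 and -3.41 on the controls and at 0.81 and 0.91 with PAM. The groups stood apart by 4.15 ± 0.12, a 17.8-fold difference (adjusted p = 3.42e-08). Its partner Tlr1 rose by 1.08 and the coreceptor Cd14 by 2.39. The scavenger receptor Cd36, which hands diacyl lipopeptides to TLR2, fell by 0.65. Irak3, a kinase-dead family member that blocks IRAK signalling, lay at -0.39 and -0.50 on the controls and at 1.80 and 1.81 with PAM, a rise of 2.25 ± 0.07 (adjusted p = 3.45e-08).

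Genes of the NF-kB pathway rose widely: 16 of 24 rose and 4 fell, with a median of 1.15. Its inhibitors and ubiquitin editors were among the largest. Nfkbia, whose promoter is printed above, lay at -2.14 and -2.07 on the controls and at 0.94 and 0.95 with PAM (3.05 ± 0.09, 8.28-fold, adjusted p = 2.49e-08), and the arrays did not overlap. Nfkbiz (3.16), Nfkbie (2.45) and Nfkbib (1.33), which encode further IkB proteins, rose too. Of the ubiquitin editors and the adaptors around them, Traf1 rose by 3.31, Tnip1 by 1.90, Tnfaip3 by 1.85 and Birc3 by 1.78. Zc3h12a, a nuclease that degrades inflammatory transcripts, rose by 2.02, whereas Zfp36, which also destabilises such transcripts, fell by 0.70. Nfkb2 (2.08) and Relb (1.20), the subunits of the noncanonical pathway, rose. Of the MAP kinases and their phosphatases, 7 of 33 rose and 9 fell. In the class at 8 or above, 7 of 22 rose and 7 fell, against 22.3% and 27.1% of that class. Dusp4 (1.98) and Dusp16 (1.36), phosphatases that switch MAP kinases off, rose, as did Map3k5 (1.63). Map3k1 fell by 1.14.

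Transcription factors split. Of 23 AP-1, ATF and BATF genes 8 rose and 8 fell; 5 fell when PAM replicate 1 or PAM replicate 2 was left out, or the poly I:C arrays. The immediate-early genes Fos (-1.41), Atf3 (-1.25) and Jun (-0.85) were lower at 24 h, and Batf (1.29) and Fosl2 (1.08) were higher. Among 56 macrophage lineage and other factors 13 rose and 20 fell. Ets2 was highest, at -0.78 and -0.60 on the controls and 1.38 and 1.43 with PAM (2.10 ± 0.09, adjusted p = 4.46e-07). Maff (1.71), Cebpb (1.25), Prdm1 (1.19) and Hif1a (1.01) rose. Epas1, which encodes HIF-2 alpha, lay at 2.55 and 2.58 on the controls and at 0.02 and -0.02 with PAM. It fell by 2.56 ± 0.10 (adjusted p = 1.57e-07), so the 2 hypoxia-inducible factor subunits went opposite ways. Egr2 (-1.79), Myc (-1.33), Mef2c (-1.21) and Tfeb (-1.19), a regulator of lysosomal genes, also fell. In the IRF, STAT and SOCS list 10 of 28 rose and 8 fell. Jak2 (2.49) and Socs1 (1.79), a cytokine receptor kinase and a feedback inhibitor of it, rose. Socs3, another such inhibitor, rose by 2.25, the mean of probes that disagreed (0.81 and 3.69). The probes of Socs6 (mean -1.09) disagreed too, at -1.70, -1.54 and -0.03, the last not passing (adjusted p = 0.85). Of 41 chromatin enzymes 7 rose and 16 fell. The DNA methyltransferase gene Dnmt3a lay at 0.42 and 0.38 on the controls and at -1.78 and -1.63 with PAM, a fall of 2.11 on the log2 scale (adjusted p = 1.17e-07).

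Families of surface receptors were divided, but so was the class at 8 or above tested alone, where 22.3% rose and 27.1% fell. Among 24 C-type lectins, which bind sugars and microbial glycolipids, 6 rose and 6 fell. Of the 12 lectins in that class, 6 rose and 4 fell, and a departure from its shares was not tested. Clec4e (Mincle), the receptor for mycobacterial cord factor, lay at -5.16 and -4.84 on the controls and at 0.52 and 0.52 with PAM. The difference was 5.52 ± 0.11, or 45.8-fold (adjusted p = 4.84e-09). Clec4n (3.04), which encodes Dectin-2, Clec4a1 (2.26), Clec5a (2.03) and Clec4d (1.07) rose. The mannose receptor gene Mrc1 lay at 2.60 and 2.54 on the controls and at -0.11 and 0.11 with PAM (-2.57 ± 0.09, adjusted p = 1.1e-07). Clec7a (Dectin-1), a receptor for fungal glucan, fell by 1.20.

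Of scavenger and phagocytic receptors, 6 of 25 were higher and 10 lower. In the class at 8 or above, 4 of 19 rose and 12 fell, against 22.3% and 27.1% of that class. A departure from these shares was not tested. Olr1, a receptor for oxidised LDL that is also a lectin, lay at -0.71 and -0.47 on the controls and at 3.79 and 3.85 with PAM (4.41 ± 0.09, adjusted p = 4.84e-09). Marco, a receptor for bacteria and particles, lay at -0.64 and -0.66 on the controls and at 3.57 and 3.58 with PAM. Its difference was 4.23 ± 0.06 (adjusted p = 1.2e-09). Cxcl16, a scavenger receptor and chemokine in one, rose by 3.02 and Scarf1 by 1.28. Genes known for the uptake of apoptotic cells were also among the decreases: the bridging proteins Gas6 (-1.73) and Pros1 (-1.44), the receptor Mertk (-1.23) and the engulfment adaptor Elmo1 (-1.16) fell. Timd4, a phosphatidylserine receptor of resident macrophages, rose by 1.18. Cd93 fell by 2.77.

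**Figure D4:**
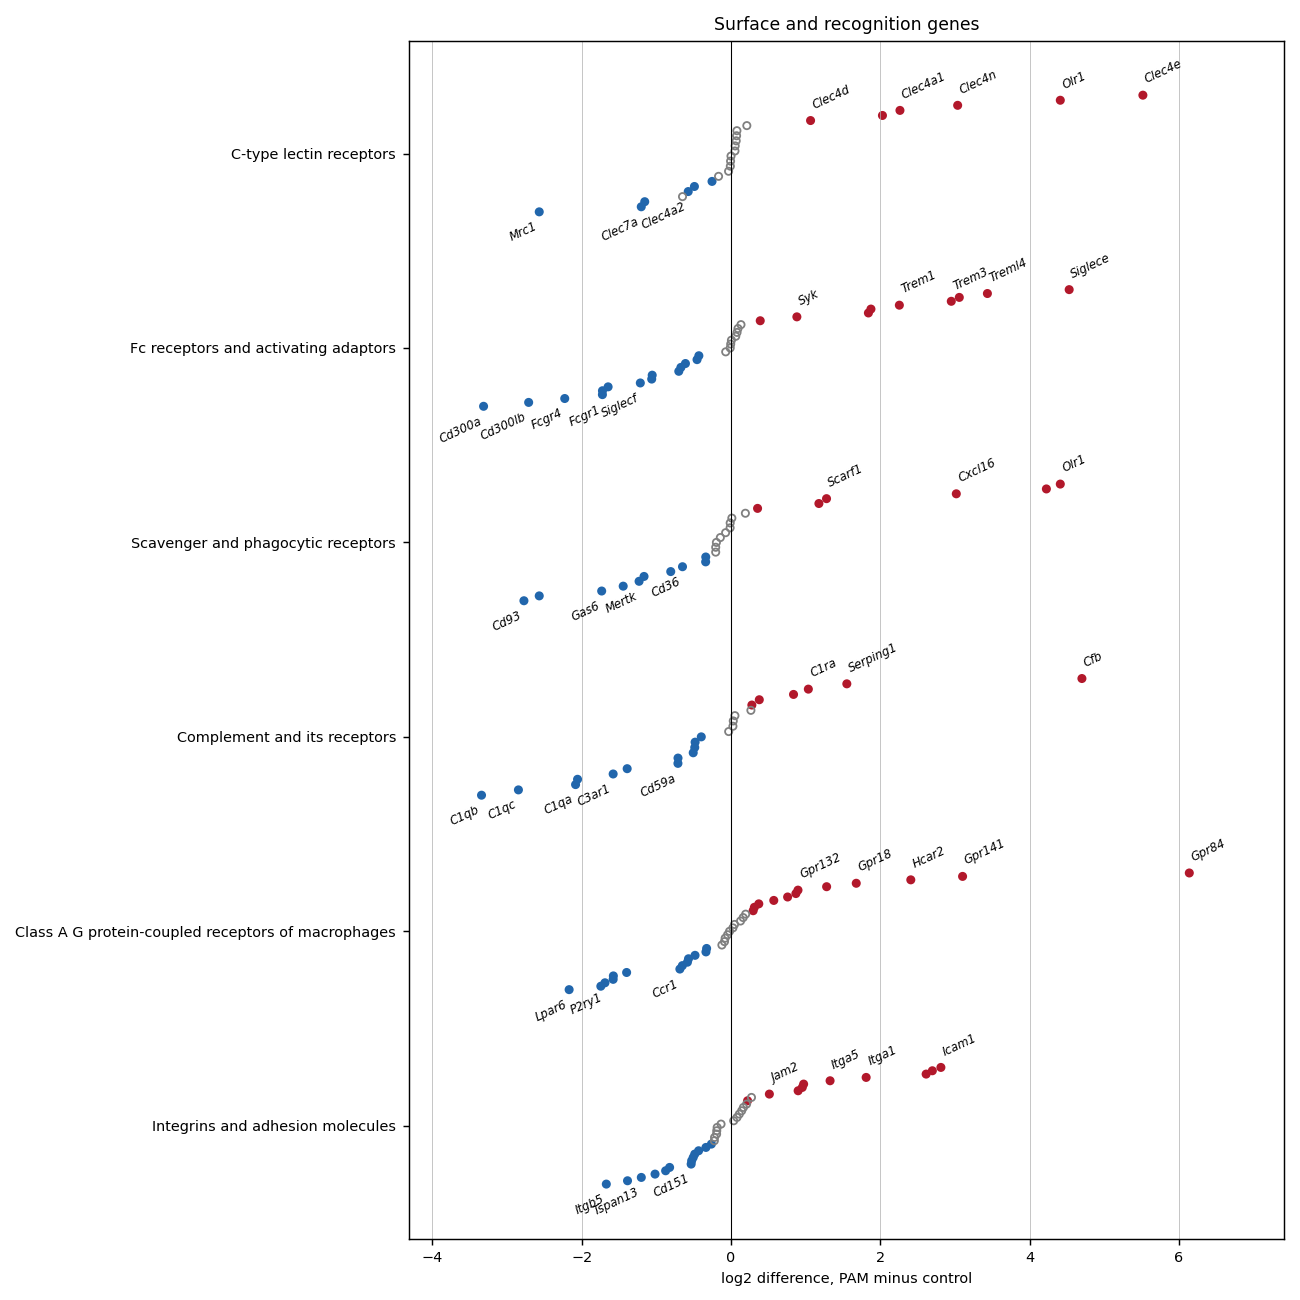
Difference of PAM from control in log2 for the genes of 6 lists of surface and recognition genes; each point is 1 gene, filled where it passed (red higher, blue lower) and open where it did not. Each list holds genes on both sides of 0.

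Fc receptors, Siglecs, CD300 and TREM family genes made up 31 genes, of which 9 rose and 14 fell. In the class at 8 or above, 4 of 15 rose and 9 fell, against 22.3% and 27.1% of that class. This departure was not tested either. Siglece, an inhibitory receptor for sialic acid, lay at -0.19 and -0.16 on the controls and at 4.36 and 4.35 with PAM (4.53 ± 0.07, 23.1-fold, adjusted p = 1.27e-09). Cd300a, an inhibitory receptor, went the other way, from 0.94 and 1.00 on the controls to -2.37 and -2.32 with PAM (-3.31 ± 0.07, adjusted p = 7.75e-09). The family split by member: Cd300e rose by 3.06, and Cd300lb fell by 2.71. Likewise Treml4 (3.44), Trem3 (2.95) and Trem1 (2.26), an amplifier of inflammation, rose while Trem2 (-1.72), a lipid receptor, fell. Among Fc receptors the inhibitory Fcgr2b rose by 1.88. The activating Fcgr4 and Fcgr1 fell by 2.23 and 1.72.

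Complement genes fell more often than they rose (12 against 6 of 23, median -0.40, or -0.25 without PAM replicate 1). The 3 chains of C1q, which starts the classical pathway and tags dying cells, fell together. C1qb lay at 0.70 and 0.65 on the controls and at -2.68 and -2.65 with PAM, a fall of 3.34 ± 0.07 (10.1-fold, adjusted p = 4.84e-09). C1qc was 7.2-fold lower and C1qa 4.23-fold lower. The complement receptor genes Vsig4 (-2.06), C3ar1 (-1.58) and C5ar2 (-1.39) fell as well. Cfb, factor B of the alternative pathway, rose by 4.70 ± 0.27. Its control arrays lay far apart, at -4.15 and -5.26, against 0.01 and -0.01 with PAM (adjusted p = 2.19e-06). Serping1, the C1 inhibitor, rose by 1.55.

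Of 35 class A G protein-coupled receptors 12 rose and 13 fell. Gpr84, a receptor for medium-chain fatty acids, lay at -3.39 and -3.80 on the controls and at 2.51 and 2.58 with PAM. The groups were 70.5-fold apart (6.14 ± 0.13, adjusted p = 4.84e-09). Gpr141 (3.10) and Hcar2 (2.41), the niacin and butyrate receptor, rose. Lpar6 lay at 0.99 and 1.14 on the controls and at -1.26 and -0.95 with PAM (-2.17 ± 0.11). Cxcr4 (-1.74), P2ry1 (-1.69) and Gpr183 (-1.58), an oxysterol receptor, fell. The regulators behind these receptors were lower more often than higher, 13 against 5 of 31 (3 higher when PAM replicate 1 or PAM replicate 2 was left out). Rgs2, which speeds the shut-off of G proteins, lay at 0.64 and 0.82 on the controls and at -2.76 and -2.78 with PAM, a fall of 3.50 ± 0.08 (11.3-fold, adjusted p = 7.25e-09). Rgs1 fell by 3.11 and Rgs18 by 2.58. Prkar2b, a regulatory subunit of protein kinase A, rose by 2.72.

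Adhesion and cytoskeletal genes were divided too. Of 36 integrin and adhesion genes 10 rose and 13 fell. In the class at 8 or above, 7 of 25 rose and 14 fell, against 22.3% and 27.1% of that class. Icam1 (2.81), Itgal (2.70), which encodes the alpha chain of its receptor LFA-1, Itgb8 (2.61) and Itga1 (1.81) rose. Itgb5 (-1.67) and Itgb3 (-1.39), the beta chains of vitronectin receptors, fell. Of 40 actin and motility genes 9 rose and 20 fell, the last number being 11 without PAM replicate 1. Marcksl1 lay at -3.18 and -3.01 on the controls and at 0.45 and 0.37 with PAM (3.50 ± 0.16, adjusted p = 4.75e-07). Arhgap25, a brake on the GTPase Rac, fell from 1.19 and 1.32 to -1.40 and -1.32, a difference of -2.61 ± 0.07.

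Matrix genes were mostly higher, 16 against 9 of 33. Lox, which crosslinks collagen and elastin, lay at -0.09 and -0.38 on the controls and at 4.75 and 4.83 with PAM (5.03 ± 0.09, 32.6-fold, adjusted p = 3.55e-09). Tgfbi (4.12), the proteases Mmp9 (3.34), Mmp14 (2.62) and Mmp2 (2.01), and the inhibitor Timp1 (2.52) rose. Hpse, the heparan sulfate cutting heparanase, fell from 0.00 and -0.00 to -2.24 and -2.16 (-2.20 ± 0.07, adjusted p = 3.41e-08). Mmp19 (-1.73) and Adam8 (-1.88) also fell. Markers of mesothelial cells and fibroblasts, for which such genes are typical, moved unevenly: of 15, 2 rose (Pdgfrb, 2.20, and Dcn, 0.95) and 5 fell, Upk1b (-1.54) most. The first count was 5 without control replicate 1, and the second 8 without control replicate 2, 3 without control replicate 1 or PAM replicate 1, and 2 without PAM replicate 2. Of the 6 in the class at 8 or above, tested alone, 3 rose and 0 fell, against 22.3% and 27.1% of that class. With all genes tested, Col1a1 (0.19), Col3a1 (0.02) and Msln (-0.18) did not pass. The summed value of the 15 markers was 3.61 and 0.40 on the control arrays and 1.43 and 1.34 on the PAM arrays. The control sums lay far apart, and the sum adds genes that moved in opposite directions, so it cannot tell the amount of these cells. The part of these cells in the matrix result was not tested.

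Clotting genes moved in both directions, with 8 of 19 higher and 6 lower. Serpinb2 (4.64), an inhibitor of plasminogen activators, Procr (2.48), the protein C receptor, and F10 (1.97) rose. Thbd, the thrombin receptor that turns on protein C, lay at 1.21 and 1.50 on the controls and at -0.64 and -0.55 with PAM (-1.95 ± 0.11, adjusted p = 1.38e-06). The plasminogen activator gene Plau fell by 0.95. Of 39 growth factor and receptor genes 10 rose and 16 fell. Inhba (4.54), the activin A subunit, and Met (3.60), the receptor for hepatocyte growth factor, were highest; Hgf, its ligand, fell by 1.54.

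Genes of amino acid uptake and use rose. Of 22 transporters 14 rose and 3 fell (median 0.49). Slc7a11, the cystine-glutamate exchanger, lay at -1.38 and -1.39 on the controls and at 3.75 and 3.76 with PAM. The arrays of the groups did not overlap, and the difference was 5.14 ± 0.09, or 35.3-fold (adjusted p = 3.07e-09). Slc7a2, the importer of arginine, lay at -2.90 and -2.95 on the controls and at 1.92 and 1.90 with PAM (4.83 ± 0.10, adjusted p = 4.84e-09). The betaine transporter Slc6a12 rose by 3.57, the glycine transporter Slc6a9 by 1.74 and the leucine transporters Slc7a8 and Slc7a5 by 1.39 and 1.24. Slc43a2 fell by 0.70. In serine, glycine and one-carbon synthesis 9 of 17 rose and 1 fell. Asns, whose promoter is printed above, lay at -1.68 and -1.67 on the controls and at 0.03 and 0.02 with PAM (1.70 ± 0.07, adjusted p = 1.59e-07). Mitochondrial Mthfd2 (1.44) and Phgdh (1.14), the entry enzyme of serine synthesis, rose as well. Of the 20 cytosolic aminoacyl-tRNA synthetases, which load amino acids onto tRNAs, 18 rose and 0 fell, although by small amounts (median 0.31, largest Tars at 0.72). Without PAM replicate 1 the number was 10, and without PAM replicate 2 it was 11. At an unadjusted p under 0.05 in limma, 19 were higher and 0 lower.

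Genes for breaking down and folding proteins rose, again by small amounts. Of 35 proteasome genes 32 rose and 0 fell (median 0.45). Psme2, a subunit of the activator PA28, lay at -1.26 and -1.20 on the controls and at 0.03 and -0.03 with PAM (1.23 ± 0.07, adjusted p = 2.49e-06). At an unadjusted p under 0.05 in limma, 33 of the 35 were higher and 0 lower. The immunoproteasome subunits Psmb10 (0.89) and Psmb8 (0.85) came next. In the endoplasmic reticulum list 22 of 32 rose and 0 fell (median 0.35). Herpud1, part of the machinery that removes misfolded proteins, lay at -0.02 and 0.02 on the controls and at 1.19 and 1.22 with PAM (1.20 ± 0.06, adjusted p = 1.15e-06). Creld2 rose by 1.00 and Ero1a, which forms disulfide bonds, by 0.89. Of 26 chaperones 14 rose and 3 fell, with Cct3 (1.40) and Stip1 (0.77) highest and Bag3 (-0.64) lowest. Ribosome biogenesis had 31 of its 36 genes in the class at 8 or above, where 17 rose and 1 fell, against 49.4% of that class called. With all genes tested, 11 of the 36 were higher and 0 lower, or 30.6% called against 25% of all genes. That count ran from 3 (without PAM replicate 2) to 18 (quantile normalization) and was 5 without control replicate 1 and 7 without PAM replicate 1. Of 28 cytosolic ribosomal proteins 1 rose and 7 fell; 1 fell without PAM replicate 2 and 4 without PAM replicate 1 or control replicate 2.

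Genes of antioxidant defence rose: 17 of 27 in the glutathione, thioredoxin and NRF2 list, with 2 lower (median 0.42). After Slc7a11, which supplies cystine for glutathione, Gsta3 was highest. It lay at -0.21 and 0.03 on the controls and at 1.73 and 2.10 with PAM (2.01 ± 0.13, adjusted p = 4.85e-06). Gclm (1.67), the regulatory subunit of the rate-limiting enzyme of glutathione synthesis, Nqo1 (1.58), Gsr (1.47), which recycles glutathione, and Abcc1 (1.36), which exports its conjugates, rose. Gpx1, a peroxidase that consumes glutathione, went from 0.36 and 0.48 to -0.69 and -0.68 (-1.11 ± 0.07, adjusted p = 3.35e-06). Nfe2l2, which encodes NRF2 itself, did not pass (-0.13 ± 0.07, adjusted p = 0.242). Of 20 genes for superoxide, nitric oxide and arginine use 11 rose and 2 fell (median 0.49). Arg2 (2.82) and Sod2 (2.68), both mitochondrial enzymes, Gch1 (1.71), which supplies the cofactor of nitric oxide synthase, Arg1 (1.19) and Nos2 (1.14) rose. The pentose phosphate pathway had 3 of 8 genes higher and 0 lower, H6pd most (0.82).

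**Figure D5:**
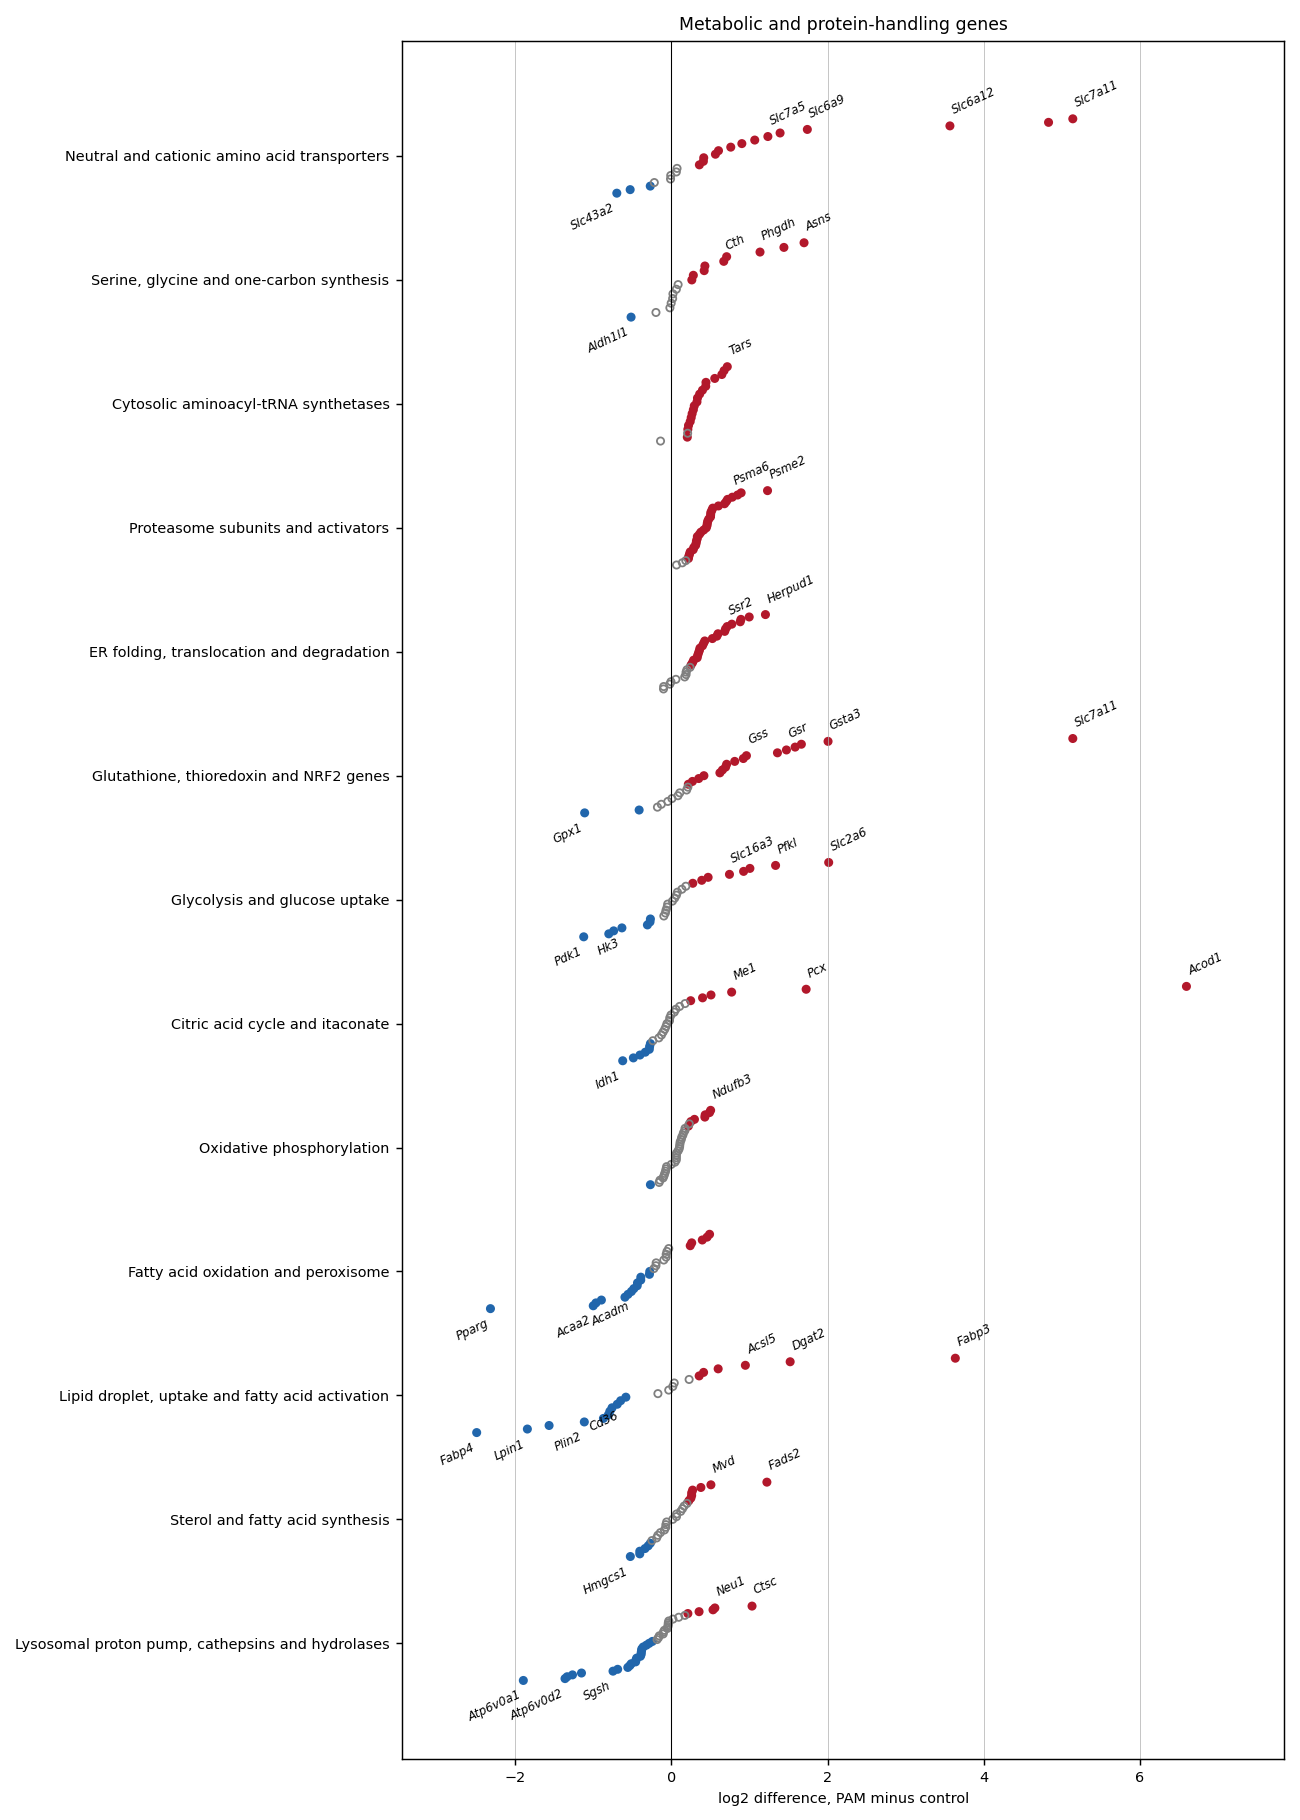
Difference of PAM from control in log2 for the genes of 13 metabolic and protein-handling lists; each point is 1 gene, filled where it passed (red higher, blue lower) and open where it did not. Proteasome genes lie close together above 0, while the citric acid cycle holds 1 gene, Acod1 at 6.60, far from the others.

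In energy metabolism few enzymes moved far. Glycolysis and glucose uptake had 8 of 26 genes higher and 7 lower (median 0.03; 4 lower without PAM replicate 2). The sugar transporter gene Slc2a6 rose by 2.01. Pfkl, a phosphofructokinase, lay at -0.06 and -0.07 on the controls and at 1.23 and 1.31 with PAM (1.33 ± 0.07, adjusted p = 1.15e-06). Pdk1, which keeps pyruvate out of the citric acid cycle, fell by 1.12, and Aldoc and Ldhb by 0.80 and 0.74. In the citric acid cycle 6 of 27 rose and 7 fell (4 without PAM replicate 1). Acod1, which makes the antimicrobial metabolite itaconate from a cycle intermediate, lay at -6.56 and -6.59 on the controls and at 0.00 and 0.05 with PAM. It stood 96.8-fold apart (6.60 ± 0.06, adjusted p = 1.41e-10). Pcx, which refills the cycle from pyruvate, rose by 1.73 (3.31-fold), and Idh1 fell by 0.62. Of 34 oxidative phosphorylation genes 7 rose and 1 fell, which is 23.5% against 25% of all genes. All 34 were in the class at 8 or above, and there 9 rose and 1 fell, against 49.4% of that class called. Without control replicate 1, 4 rose and 2 fell, without PAM replicate 1, 4 rose and 0 fell, and without control replicate 2, 0 fell.

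Genes of fat use fell more often than they rose. In fatty acid oxidation 14 of 27 fell and 5 rose (median -0.28; 3 rose without control replicate 1, PAM replicate 1 or PAM replicate 2). Pparg, a nuclear receptor that drives fat uptake and storage, lay at 1.55 and 1.80 on the controls and at -0.71 and -0.58 with PAM (-2.32 ± 0.09, adjusted p = 2.15e-07). Hadhb (-0.97), a subunit of the mitochondrial trifunctional protein of the cycle, fell. In the lipid droplet list 11 of 22 fell and 6 rose (median -0.38). Its fatty acid binding proteins went opposite ways. Fabp4 lay at 1.63 and 1.58 on the controls and at -0.88 and -0.90 with PAM (-2.49 ± 0.07, adjusted p = 2.71e-08), and Fabp3 at -3.43 and -3.49 against 0.24 and 0.12 (3.64 ± 0.07, adjusted p = 3.82e-09). Lpin1 (-1.84), Mgll (-1.57) and the droplet coat gene Plin2 (-1.11) fell, while Dgat2, which makes triglyceride, rose by 1.52. Sterol and fatty acid synthesis had 8 of 29 higher and 6 lower, with Fads2 (1.22) highest and Hmgcs1 (-0.53) lowest. Those counts moved with single arrays: 2 were higher without PAM replicate 2, 4 without PAM replicate 1 and 5 without control replicate 1 or control replicate 2, and 2 were lower without PAM replicate 1 and 3 without control replicate 2. Of 32 sphingolipid and phosphoinositide genes 7 rose and 13 fell, with Smpdl3b at 4.36. Of 23 ABC transporters 8 rose and 11 fell, and the cholesterol exporters parted: Abca1 rose by 1.14 and Abcg1 fell by 1.17. Abca9 fell by 2.61.

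Synthase genes of the prostaglandins moved in opposite directions. Of 24 genes of the list 6 rose and 7 fell. Ptgs2 (COX-2) lay at -1.95 and -1.70 on the controls and at 3.22 and 3.25 with PAM (5.06 ± 0.16, 33.3-fold, adjusted p = 4.35e-08). Ptges, the prostaglandin E synthase, lay at -3.65 and -3.37 on the controls and at 1.28 and 1.27 with PAM (4.78 ± 0.12, adjusted p = 1.25e-08). Hpgds, the prostaglandin D synthase, lay at 1.21 and 1.24 on the controls and at -2.46 and -2.18 with PAM, a difference of -3.55 ± 0.13 (11.7-fold, adjusted p = 1.4e-07). The thromboxane synthase gene Tbxas1 fell by 0.79, and Alox5, which begins leukotriene synthesis, did not pass (-0.01 ± 0.08, adjusted p = 0.959).

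Of 41 lysosomal genes 22 fell and 5 rose (median -0.28). The proton pump subunits Atp6v0a1 and Atp6v0d2 were lowest, at -1.90 and -1.36, and Lgmn (-1.33), Man2b1 (-1.27) and Lipa (-1.15), which digest proteins, sugars and lipids, fell too. Atp6v0a1 lay at 1.81 and 1.98 on the controls and at -0.03 and 0.03 with PAM (adjusted p = 1.6e-06). Ctsc, which activates serine proteases, rose by 1.03. Of 29 autophagy genes 4 rose and 9 fell, Sqstm1 (0.91), the p62 cargo receptor, being highest and Calcoco1 (-0.70) lowest.

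Iron and metal genes were divided, with 11 of 27 higher and 9 lower. Lcn2, which binds bacterial siderophores, lay at -0.52 and -0.56 on the controls and at 5.41 and 5.37 with PAM. The difference was 61-fold (5.93 ± 0.06, adjusted p = 1.41e-10). Slc40a1, ferroportin, the iron exporter, lay at 1.14 and 1.36 on the controls and at 0.04 and -0.04 with PAM (-1.25 ± 0.09, adjusted p = 7.74e-06). Steap3, an iron reductase, fell by 1.44, and Slc39a14, an importer of zinc and iron, rose by 1.39. Among 29 solute carriers of nucleosides, ions and metabolites 13 rose and 10 fell. The mitochondrial iron importer Slc25a37 rose by 3.02, and the copper transporters Slc31a2 and Slc31a1 by 1.89 and 1.37. Slc9a9, an endosomal proton exchanger, fell by 2.68. Of 27 secreted antimicrobial and acute-phase genes 11 rose and 2 fell. Hp, haptoglobin, lay at -1.94 and -1.84 on the controls and at 3.41 and 3.39 with PAM (5.29 ± 0.07, adjusted p = 3.96e-10). Orm1 (4.22), Slpi (2.69), Ptx3 (2.00) and Saa3 (1.98) rose, and S100a4 and S100a6 fell by 1.27 and 1.16. Some genes of this list and of the matrix list are also made by neutrophils. Of 14 neutrophil markers 4 rose and 2 fell (1 without PAM replicate 2), with S100a8 at 2.04, Mmp8 at 1.50 and Mmp9 at 3.34. Among the 8 that did not pass were Ly6g (0.05), Mpo (-0.02) and Elane (-0.00), which were not in the class at 8 or above. Of the 4 markers in that class, tested alone, 3 rose and 1 fell. The summed value of the 14 was -0.21 and -1.06 on the controls and 6.08 and 6.06 with PAM. This sum includes the large rises of Mmp9, S100a8 and Mmp8, while the median difference of the 14 was 0.03. The part of neutrophils in these results was not otherwise tested.

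Ion channels and calcium genes fell more often than they rose (20 against 6 of 35, median -0.29). Orai2, a store-operated calcium channel, rose by 2.57 and the potassium channel Kcna3 by 2.15, while Kcnj2, an inward rectifier, fell by 1.66. Purine and pyrimidine genes had 10 of 32 higher and 7 lower. Entpd1 (CD39), which removes extracellular ATP, lay at 0.86 and 0.93 on the controls and at -1.74 and -1.68 with PAM (-2.61 ± 0.09, adjusted p = 5.74e-08). Ampd3 (1.72) and Pnp (1.43) rose.

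Genes of contact with lymphocytes were divided. Of 28 costimulation and checkpoint genes 13 rose and 8 fell. Slamf6 (3.63), Cd40 (2.49), Tnfsf9 (2.44), Icosl (2.31) and the checkpoint ligand Cd274 (1.72) rose. Vsir (-2.37), the VISTA checkpoint gene, and Havcr2 (-1.61), which encodes TIM-3, fell. In MHC presentation 10 of 17 rose and 1 fell. H2-M2 lay at -5.10 and -5.14 on the controls and at 0.84 and 0.84 with PAM (5.96 ± 0.06, 62.1-fold, adjusted p = 1.41e-10). H2-Ab1 (1.42) and the peptide transporter gene Tap1 (1.12) rose, and H2-DMa fell by 0.57. Of 33 cytokine receptors 13 rose and 11 fell, with Fas (2.27) and Il17ra (1.68) higher. Both chains of the interleukin-6 receptor, Il6st (-1.25) and Il6ra (-0.92), fell.

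Cell death and division genes were mixed. Of 24 inflammasome and necroptosis genes 11 rose and 10 fell. Nlrp3 lay at -0.51 and -0.54 on the controls and at 2.43 and 2.49 with PAM (2.98 ± 0.08, adjusted p = 1.79e-08). Mefv (2.76), which encodes pyrin, Casp4 (1.62) and Nlrc4 (1.61) rose, and Nlrp1b (-1.26) and the shared adaptor Pycard (-0.66) fell. Of 19 BCL2 family genes 2 rose (1 when any of the control or PAM arrays was left out) and 6 fell; the killer Bcl2l11 (-1.35) and the survival gene Bcl2l1 (-1.30) fell alike. Of 43 cell cycle genes 21 fell and 4 rose (median -0.26). Ccnd1 (-1.61), Pcna (-1.08) and the replication licensing gene Cdt1 (-1.05) fell. Mki67, the proliferation marker, was an exception, at -0.11 and 0.11 on the controls and 1.59 and 1.72 with PAM (1.65 ± 0.09, adjusted p = 1.09e-06). Of 25 p53 and DNA damage genes 5 rose and 9 fell, Sesn1 most (-2.20). In the clock list 3 of 17 rose and 5 fell, with Nr1d2 (-1.08) lowest.

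Lists that describe macrophage states were divided as well. Of 24 resident peritoneal macrophage genes 10 rose and 8 fell (5 without PAM replicate 1). Serpinb2 (4.64), Prg4 (3.08), Slpi (2.69) and the macrophage surface marker Adgre1 (1.38) rose. Cd93 (-2.77), Vsig4 (-2.06) and Cd5l (-1.40) fell. Of 18 alternative activation genes 4 rose (Arg1 at 1.19 and Tgm2 at 1.33 among them) and 7 fell, with Mrc1 (-2.57) and Folr2 (-1.38) low. Markers of further cell types were counted as well. Of T and NK cell markers 0 of 14 passed in limma (1 at an unadjusted p under 0.05, and 1 fell without control replicate 2), of mast cell markers 0 of 10 (1 at an unadjusted p under 0.05), of eosinophil markers 1 of 6 (Siglecf, -1.21), and of dendritic cell markers 2 of 10 rose (Bst2 at 1.75, also an interferon-stimulated gene) and 1 fell. For the dendritic markers these counts were 1 and 2 without control replicate 2, 2 and 0 without control replicate 1 or PAM replicate 2, and 1 and 0 without PAM replicate 1. Among B cell markers 3 of 13 rose (1 without control replicate 2 or PAM replicate 2) and 1 fell, and among erythroid and platelet markers 2 of 5 rose, Pf4 (2.60) most (1 of 5 without PAM replicate 2), and 0 fell (1 without control replicate 2). Of the 8 macrophage markers 2 rose and 3 fell.

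The interferon-stimulated genes separate PAM from poly I:C in size. With PAM 31 of 39 rose and 2 fell, with a median of 1.07, while the median with poly I:C was 3.68. Both comparisons use the same control arrays, so the values are given side by side and only the direct contrast of PAM with poly I:C is tested. The largest with PAM was Ifi205, a DNA sensor family gene, at 4.79 against 6.26 with poly I:C, and lower with PAM by 1.47 in the direct contrast (adjusted p = 0.000131). Ifitm6 fell with PAM, by 2.02, and stood at 0.96 with poly I:C, a contrast of -2.98 (adjusted p = 8.36e-08). Tlr3, the receptor for poly I:C, did not pass with PAM (-0.29 ± 0.11, adjusted p = 0.0991) and differed between the ligands by -2.74 (adjusted p = 1.61e-07).

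Over all genes, interferon-stimulated genes included, 28.7% passed in the direct contrast, 15.8% higher and 12.9% lower with PAM. Of the 452 genes at least 2-fold higher with PAM, 325 were also higher with PAM than with poly I:C, 86 were lower, and 41 did not pass. Of the 386 genes at least 2-fold lower, 252 were also lower than with poly I:C, 36 were higher and 98 did not pass. Both fits use the PAM arrays, so these counts are not independent of the choice of genes. The genes higher with PAM than with poly I:C came from several of the groups above. Lcn2 stood at 0.54 with poly I:C, 5.39 below PAM (adjusted p = 5.3e-10). Lox (0.23 with poly I:C, contrast 4.79), Siglece (0.18 and 4.35), Olr1 (0.59 and 3.82), Slc7a11 (1.39 and 3.76) and Marco (0.65 and 3.58) were like it. Among genes lower with PAM than with poly I:C, Rgs1 stood at 0.01 with poly I:C (contrast -3.12, adjusted p = 4.02e-09), C1qb at -0.67 (-2.67) and Cd300a at -0.97 (-2.34). For Acod1 the ligands gave 6.60 each (contrast 0.00, adjusted p = 0.995), and for Asns 1.70 and 1.69 (contrast 0.01, adjusted p = 0.958). A p that misses the threshold does not show that the ligands act alike.

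At some genes the means of the ligands lay on opposite sides of the controls. Fcgr4 lay at 0.02 and -0.02 on the controls and at -2.20 and -2.26 with PAM, and was 2.22 above the controls with poly I:C (contrast -4.45, adjusted p = 1.62e-09). Cd14 was 2.39 above the controls with PAM and stood at -1.28 with poly I:C (contrast 3.68, adjusted p = 4.58e-09). The glutathione gene Gclm (1.67 with PAM and -0.64 with poly I:C, contrast 2.31) and the endoplasmic reticulum gene Herpud1 (1.20 and -0.59, contrast 1.79) were of the same kind. Epas1 (-2.56 and -2.82, contrast 0.26, adjusted p = 0.0877) and Vsir (-2.37 and -2.63, contrast 0.25, adjusted p = 0.111) did not pass between the ligands.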

How the data were processed

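RNA was made into biotinylated cRNA for an Affymetrix array, per the labels' protocols. The authors deposited log2 values (base assumed) of 28815 probes on 6 arrays, centred by probe (largest remaining probe median 5e-07). How probes were summarized or normalized is not given in the sources used here. Platform annotation gave 21780 probes 1 symbol, 1605 several and 5430 none. 998 of 19935 genes were means of several probes. limma 3.58.1 (R 4.3.3) fitted 3 group means to 6 arrays (lmFit, eBayes; 3 residual and 5.68 prior degrees of freedom), and the fit was tested on simulated data. Python 3.11.15, pandas 2.3.3, numpy 2.4.6 and matplotlib 3.10.9 were used for promoters, microRNAs and figures. Centring removed levels, but values at 8 or above are stored in coarser single-precision steps. Genes whose control and PAM values differed by whole multiples of these steps formed the class at 8 or above (7517). Lower values can match by accident, so the class can hold genes below 8.

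The 58 functional and 9 marker lists and the comparison were chosen with earlier results of these data known. Genes named were the 25 largest changes per direction, list members changed at least 2-fold or otherwise the 3 largest per direction, and some that did not pass; others are said to be chosen after their values were seen. Results of a further list are not reported here. No set test was run. The labels do not say if replicate numbers pair the samples, and 2 arrays per group cannot settle it. Deviations correlated at 0.155 between control 1 and PAM 1, -0.0727 between control 1 and poly I:C 1, and -0.0101 between PAM 1 and poly I:C 1. Alternatives were centring, quantile normalization, 4 arrays only, the replicate block, robust eBayes, single probes, high genes only and leaving out each array.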

Additional observations from a re-analysis of the deposited data

How the results depend on the processing

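The 5 counts were the genes higher (2202), lower (2781), at least 2-fold higher (452), at least 2-fold lower (386), and those 2-fold genes that also differed from poly I:C (699). Leaving out 1 control or PAM array gave 1576 to 2351 genes higher, 1828 to 2839 lower (lowest without PAM replicate 1), 450 to 462 at least 2-fold higher, 349 to 417 at least 2-fold lower, and 644 to 741 that differed from poly I:C; a lone array was assumed to vary like the other groups. With only genes of the class at 8 or above, 248 were at least 2-fold higher, 216 at least 2-fold lower and 408 differed from poly I:C. Fewer genes were tested there. The 452 and 386 stood at 450 and 479 after quantile normalization, which turns the order of increases and decreases. With the replicate number as a block, 2179 genes were higher and 2739 lower (4775 calls shared), and 1 of 479 named genes, Bid, lost its call. Of the 479 named genes 461 to 479 kept their call under each other setting that held all of them (286 of 286 among high genes), and 0 reversed. The median of all genes moved to between -0.02 and 0.02. The contrast with poly I:C was not run on the 4 control and PAM arrays alone, which lack that group. The precision is limited by 2 arrays per group.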

Other observations

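Several large changes lay outside the lists and were chosen after their values were seen. Ch25h, which makes the antiviral oxysterol 25-hydroxycholesterol, rose by 3.31 ± 0.15 with PAM (adjusted p = 3.89e-07), from -3.18 and -3.45 on the controls to 0.02 and -0.02. With poly I:C it stood at 4.48. Cyp27a1, which makes 27-hydroxycholesterol, fell by 1.87 (adjusted p = 5.92e-07). Cav1, the coat protein of caveolae, lay at -0.00 and 0.00 on the controls and at 3.54 and 3.58 with PAM (adjusted p = 3.57e-09), and stood at -0.22 with poly I:C. Aoah, an enzyme that inactivates bacterial lipopolysaccharide, rose by 3.30 (adjusted p = 8.31e-09). Malt1, a protease of the signalling path behind C-type lectins, rose by 2.04 and the kinase gene Src by 2.36.

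Among decreases outside the lists, Lsp1, an actin-binding protein of leukocytes, lay at 0.56 and 0.54 on the controls and at -2.46 and -2.44 with PAM (-3.00 ± 0.06, adjusted p = 4.84e-09). It stood at -0.55 with poly I:C. Cnr2, the cannabinoid receptor of immune cells, fell by 2.67 ± 0.13 (adjusted p = 6.21e-07), as did Daglb, which makes one of its ligands (-3.13 ± 0.09, adjusted p = 2.3e-08). Selenop, a secreted selenium carrier, fell by 2.08 (adjusted p = 3.41e-08), and Xylt1, which starts proteoglycan sugar chains, by 2.91 (adjusted p = 3.59e-08).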
